A study of Mus musculus with 3 samples.

Results

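Cortical thymic epithelial cells line the outer zone of the thymic lobes, where they draw in blood-borne progenitors, commit them to the T-cell lineage and present self-peptides to immature thymocytes. The transcription factor FOXN1 directs this differentiation and acts on genes for chemokines, a Notch ligand and antigen-processing enzymes. The cells described here were selected by their own counts. A barcode of a fetal thymus library was a member when it held at least 1 UMI (unique molecular identifier, which marks 1 captured RNA molecule) of the epithelial adhesion gene Epcam, no UMI of the leukocyte gene Ptprc and fewer than 20 UMIs of the parathyroid hormone gene Pth. In addition, the summed UMIs of Psmb11, Prss16 and Ccl25, called the cortical sum below, had to reach 5 and to exceed those of the keratin genes Krt5 and Krt17. Of 16365 cells that passed quality filters in 3 libraries, 2190 met the rule, 1286 in the control library, 521 in the library labelled Tbx1neo2/neo2 and 383 in the Foxn11089/1089 library.

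Each library was made by droplet 3' single-cell RNA sequencing from trypsin-digested thymic lobes of C57BL/6 mouse embryos at embryonic day 13 to 13.5. The control was wild type (Tbx1+/+). Tbx1neo2/neo2 embryos carried, on both alleles, a neomycin cassette in an intron of Tbx1, a T-box gene of the pharyngeal apparatus, which lowers its expression without deleting it. Foxn11089/1089 embryos carried a small in-frame coding deletion on both alleles of Foxn1. The comparison of the genotypes asks how the thymic epithelium differs when development of the pharyngeal pouch or FOXN1 itself is impaired. Each genotype had 1 library, and the number of embryos pooled for it is not given in the sources used here. No test between genotypes was therefore possible, and genotype and library cannot be told apart. Intervals are exact 95% intervals and cover counting error only. A gene's level is its count scaled to counts per 1000000 UMIs (CPM), after summing over the members of a library, which was compared between libraries but not between genes. A log2 ratio was read as a difference of at least 2-fold only for genes with at least 100 UMIs over the members of the compared libraries.

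The genes of the rule describe the selection and support nothing further. Psmb11 encodes the thymoproteasome subunit β5t, which shapes the peptides shown to developing CD8 T cells. Prss16 encodes the thymus-specific serine protease of the class II antigen pathway, and Ccl25 encodes a chemokine that attracts progenitors through CCR9. On the GENCODE M21 annotation, Psmb11 (ENSMUSG00000072423) lies at chr14:54621433-54629556 on the plus strand, Prss16 (ENSMUSG00000006179) at chr13:22002173-22009742 on the minus strand and Ccl25 (ENSMUSG00000023235) at chr8:4325210-4360020 on the plus strand. Foxn1 (ENSMUSG00000002057) lies at chr11:78357577-78386558 on the minus strand, and the stromal-type chemokine gene Cxcl12 (ENSMUSG00000061353) at chr6:117168535-117181367 on the plus strand. The 250 bases before a RefSeq start, which for Psmb11 lies inside the longer GENCODE gene, are printed below for Psmb11, Ccl25 and Cxcl12, the genes of the rule and the chemokine with large differences in the Foxn11089/1089 members for which the RefSeq table (GRCm38.p6) held an entry. Capitals mark GACGC, or GCGTC on the other strand, the short core that FOXN1 is known to bind.
Psmb11 (chr14:54625060-54625309, plus strand): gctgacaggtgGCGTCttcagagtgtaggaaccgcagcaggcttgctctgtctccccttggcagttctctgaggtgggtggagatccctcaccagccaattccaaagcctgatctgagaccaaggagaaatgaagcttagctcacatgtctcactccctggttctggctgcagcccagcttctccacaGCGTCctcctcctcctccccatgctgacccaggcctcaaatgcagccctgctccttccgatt
Ccl25 (chr8:4324960-4325209, plus strand): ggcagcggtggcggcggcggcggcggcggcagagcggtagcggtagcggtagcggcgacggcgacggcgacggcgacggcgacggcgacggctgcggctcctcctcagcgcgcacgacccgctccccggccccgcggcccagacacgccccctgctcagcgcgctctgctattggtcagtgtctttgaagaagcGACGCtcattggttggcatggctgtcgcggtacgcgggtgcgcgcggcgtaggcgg
Cxcl12 (chr6:117168285-117168534, plus strand): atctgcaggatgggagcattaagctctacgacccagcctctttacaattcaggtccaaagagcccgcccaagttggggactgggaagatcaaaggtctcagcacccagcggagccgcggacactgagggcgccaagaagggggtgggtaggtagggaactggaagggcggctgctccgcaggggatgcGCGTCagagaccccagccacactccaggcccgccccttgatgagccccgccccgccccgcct

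The Psmb11 window held 2 matches and the printed Ccl25 and Cxcl12 windows 1 each. Ccl25 has another RefSeq start, whose window (chr8:4349338-4349587) held none. Among the other sought genes with an entry, Jag1 had 1 match, and Dll4, Foxn1, Krt8, Krt18, Ly75, Psmb9, Psmb10 and Tbata had none in their windows. Over all 32851 windows of this length, 7423 (22.6%) held the motif on either strand. A match is a description of these letters only. Of 16 genes sought, 12 had an entry. Prss16, Cd83, Cd74 and Il7 had none.

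The library labelled Tbx1neo2/neo2 was the deepest, and the control library stood apart from the other libraries in further features. The members' median depth was 15782.5 UMIs in the control, 47573 in the library labelled Tbx1neo2/neo2 and 20864 in the Foxn11089/1089 library, and the median share of mitochondrial UMIs was 2.51%, 5.72% and 5.95%. The replication-dependent histone genes held 2740 CPM in control members against 876 and 880.3 CPM in the other libraries. Lars2, which encodes a mitochondrial leucyl-tRNA synthetase, was at 151.4, 12.5 and 8.72 CPM. The targeted gene gave no check of the label Tbx1neo2/neo2. Tbx1 had 1.48 CPM over all kept cells of the control, 5.04 CPM in the library labelled Tbx1neo2/neo2 and 6.38 CPM in the Foxn11089/1089 library. In the members its UMIs numbered 3, 49 and 15. The Tbx1 level was thus not lower in the library labelled Tbx1neo2/neo2, in its members or over all its cells. The 3' counts do not read the small Foxn1 deletion, so Foxn1 checks no label. Between 17 and 28 barcodes were shared by each pair of libraries. What part these features have in the differences below was not tested. Gene levels over the members are given in the order control, library labelled Tbx1neo2/neo2 and Foxn11089/1089.

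The share of cells that met the rule was smaller in the Foxn11089/1089 library. Members made up 25.9% of the kept control cells (95% interval 24.7 to 27.2), 14.6% of those labelled Tbx1neo2/neo2 (13.4 to 15.8) and 4.90% of those of Foxn11089/1089 (4.43 to 5.40). Within the Epcam-positive cells that passed the Ptprc and Pth limits, called the gated epithelium, they were 61.4% of 2094 cells, 52.2% of 998 and 9.69% of 3951. The share of gated cells with fewer than 5 UMIs of both the cortical sum and the summed Krt5 and Krt17 went the other way, at 23.2%, 37.9% and 76.1%. Because a minimum of 5 UMIs is easier to reach in a deeper cell, every cell was also thinned at random to 8000 UMIs. Shallower cells, 666, 377 and 878 in number, drop out of this count. Members were then 47.6%, 42.1% and 6.01% of the gated epithelium. At 2000 UMIs per cell they were 18.5%, 15.1% and 0.897%. The Foxn11089/1089 share remained the smallest at each depth. The embryos' lobes were the source of all cells, and what share of each library came from neighbouring tissue was not tested.

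At 8000 UMIs per cell, 19.4% of gated control cells, 29.5% of those labelled Tbx1neo2/neo2 and 71.0% of those of Foxn11089/1089 had no UMI of the 3 cortical genes. A cortical sum of 20 or more was reached by 19.1%, 18.4% and 0.554%. In Foxn11089/1089 more gated cells were thus without these UMIs and fewer held many. At the counts as deposited, which the rule used, 59 gated control cells, 20 labelled Tbx1neo2/neo2 and 75 of Foxn11089/1089 with a cortical sum above that of Krt5 and Krt17 lay just outside the threshold, at a sum of 4. Just inside, at 5, were 51, 8 and 46 cells. After thinning to 8000 UMIs, 80, 34 and 43 of all gated cells, whatever their keratin UMIs, had a sum of 4, and 60, 28 and 33 had a sum of 5.

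**Figure D1:**
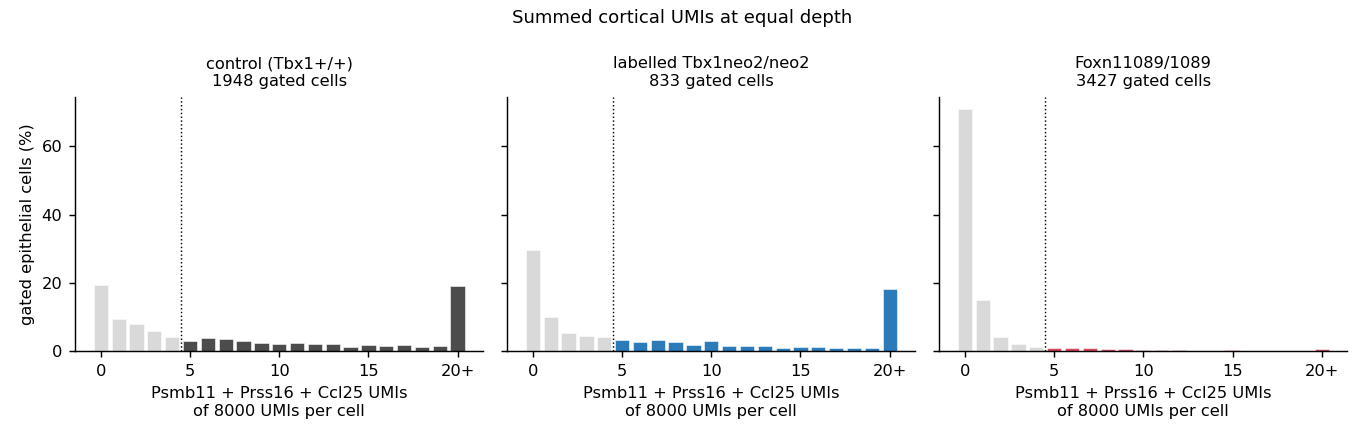
Summed UMIs of Psmb11, Prss16 and Ccl25 per gated epithelial cell after thinning each cell to 8000 UMIs (x axis), against the percent of gated cells (y axis), with 1 panel per library. Coloured bars mark sums of at least 5, and include cells whose Krt5 and Krt17 sum is larger. Cells without a UMI of these genes are 19.4% of the control, 29.5% of the library labelled Tbx1neo2/neo2 and 71.0% of Foxn11089/1089.

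The 3 selecting genes were not held together to the same degree. In control members the cortical sum had a median of 24 UMIs, of which Ccl25 gave 54.8% of all summed UMIs, Prss16 24.3% and Psmb11 20.8%. In the library labelled Tbx1neo2/neo2 the median was 58 UMIs, with 51.5%, 37.1% and 11.5%. In Foxn11089/1089 members the median was 13 UMIs, and Ccl25 gave 89.2%, Prss16 1.70% and Psmb11 9.05%. At the counts as deposited, all 3 genes were detected in 1058 control members (82.3%) and 434 members labelled Tbx1neo2/neo2 (83.3%). In Foxn11089/1089 they were detected together in 61 members (15.9%). The commonest Foxn11089/1089 pattern was Psmb11 and Ccl25 without Prss16, in 197 members (51.4%), and another 102 (26.6%) had Ccl25 as the only one of the 3. Detection depends on depth, which differed between the libraries. With members thinned to 8000 UMIs, Psmb11 was found in 79.0% of the control, 57.0% of those labelled Tbx1neo2/neo2 and 39.2% of Foxn11089/1089. Prss16 was then found in 87.7%, 90.4% and 9.33%, and Ccl25 in 86.9%, 74.4% and 91.7%. Shallower members, 40, 9 and 8 in number, drop out of these shares. By these selecting genes alone, Foxn11089/1089 members held little Prss16, and Ccl25 made up most of their cortical sum. Ccl25 gave the largest share of the sum in the other libraries as well.

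Free RNA was gauged in Epcam-negative cells with at least 10 UMIs of mesenchymal markers, on the assumption that they lack these genes. Their median depths were 9769.5, 25405.5 and 13615 UMIs in the control, Tbx1neo2/neo2-labelled and Foxn11089/1089 libraries. Ccl25 stood at 16.98, 19.6 and 23.5 CPM in them, against 943.4, 753.8 and 672 CPM in the members. It was found in 16.4%, 38.6% and 28.1% of them, against 94.3%, 94.2% and 99.7% of the members. Over the gated epithelium Ccl25 was at 619, 471 and 93.9 CPM. Whether the mesenchymal cells express Ccl25 themselves was not tested. Prss16 was found in 0.398% of the Foxn11089/1089 mesenchymal cells and in 21.9% of the members. Psmb11 was found in 0.217% of those cells and in 67.6% of the members.

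Foxn1, the regulator itself, was higher in the Foxn11089/1089 members. Its level was 102 CPM in control members (97.9 to 107), 134 CPM in those labelled Tbx1neo2/neo2 (130 to 139) and 320 CPM in Foxn11089/1089 members (308 to 332). With members thinned to 8000 UMIs, at least 1 Foxn1 UMI was found in 54.0%, 63.3% and 92.3% of them. Before thinning the shares were 74.0%, 93.9% and 97.9%, against 0.747%, 1.89% and 2.31% in the mesenchymal cells described above. Foxn1 was also highest in this library over the whole gated epithelium, at 84.6, 94.3 and 155.5 CPM, a set that the cortical genes did not select.

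The genotype comparisons share the control library, so their values are set side by side and their likeness is not a result. Foxn11089/1089 members over control members had a median log2 ratio of 0.22 over 10336 genes, and 11.1% of these genes were at least 2-fold higher and 5.48% at least 2-fold lower. Members labelled Tbx1neo2/neo2 over control members had a median of 0.41 over 11217 genes, with 13.9% higher and 2.39% lower. Centring each comparison on its median gene changed the split between higher and lower from 1151 and 566 genes to 712 and 852 for Foxn11089/1089, and from 1555 and 268 to 375 and 900 for the library labelled Tbx1neo2/neo2. Ratios are therefore to be read against these medians. The direct comparison of Foxn11089/1089 with the library labelled Tbx1neo2/neo2, added after the data were seen, had a median of -0.13 over 10966 genes, with 3.25% higher and 6.25% lower.

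Genes of cortical function outside the rule did not move as a group. Of 11 compared in the list, 3 were at least 2-fold lower and 1 higher in Foxn11089/1089 members, and none passed 2-fold in those labelled Tbx1neo2/neo2. The list medians were 0.01 and 0.16, beside 0.22 and 0.41 for all genes. Cxcl12, whose product attracts CXCR4-bearing thymocytes, was at 195.5 CPM in control members, 199.6 in those labelled Tbx1neo2/neo2 and 23.4 in Foxn11089/1089 members, a log2 ratio over control of -3.06 (-3.27 to -2.86) in the last. Without members that held 10 or more UMIs of another cell type's markers, this ratio was -4.002, and mesenchymal cells express the gene. Ly75, an endocytic receptor and surface marker of cortical epithelium, was at 50.1, 56.1 and 11.1 CPM, a log2 ratio of -2.17 (-2.48 to -1.87) for Foxn11089/1089. Tbata, a thymic stromal gene, was at 77.9, 65.1 and 6.51 CPM, a log2 ratio of -3.58 (-3.98 to -3.21). These genes were lower in the Foxn11089/1089 members than in either of the other libraries.

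Dll4, Cd83 and Ctsl of the cortical list were closer to the control. Dll4, the Notch ligand that commits progenitors to the T lineage, was at 22.9 CPM in control members, 34.7 in those labelled Tbx1neo2/neo2 and 23.4 in Foxn11089/1089 members. Its log2 ratio for Foxn11089/1089 was 0.03 (-0.21 to 0.26), and for the library labelled Tbx1neo2/neo2 0.60 (0.44 to 0.76). Under the alternative settings the Foxn11089/1089 ratio for Dll4 lay between -0.24 and 0.56, and its sign turned with the scaling. Over the whole gated epithelium, where fewer cells were members, Dll4 was at 16.5, 21.99 and 7.35 CPM. Cd83, a surface protein that stabilises MHC class II, was at 43.0, 53.6 and 39.8 CPM in members, with a Foxn11089/1089 log2 ratio of -0.11 (-0.29 to 0.07). Ctsl, the cathepsin that trims class II peptides in the cortex, was at 990.5, 1542 and 915.7 CPM. Enpep, an aminopeptidase, was the list's member past 2-fold higher, at 1.74, 2.77 and 11.1 CPM.

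**Figure D2:**
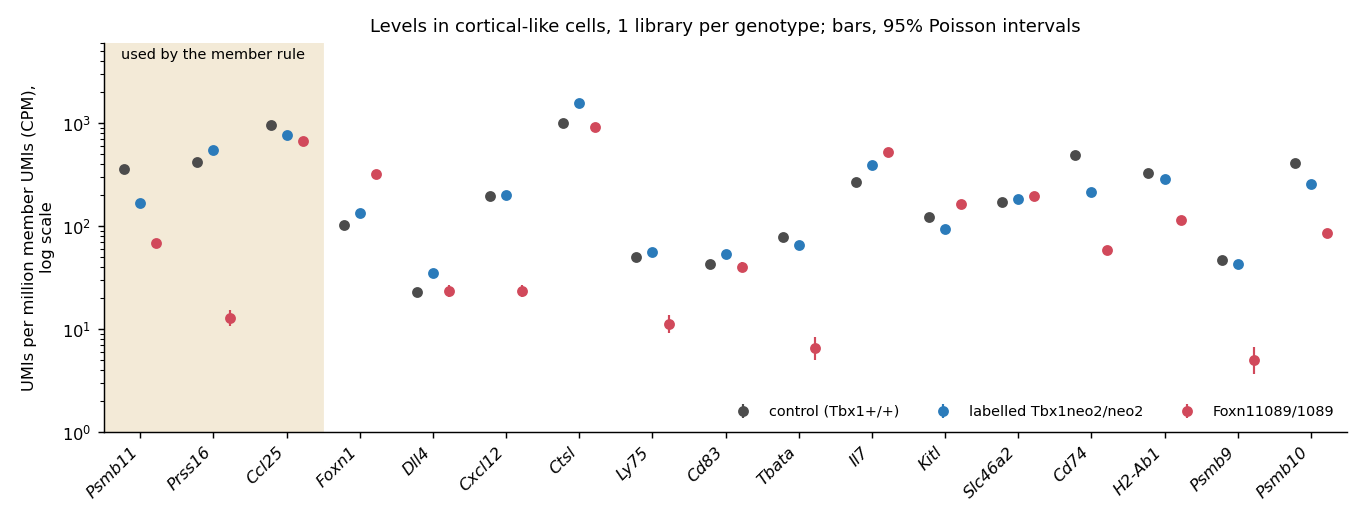
Level of named genes in the members of each library, in CPM on a log axis, with 1 point per library and exact 95% counting intervals. Prss16, Tbata, Cxcl12 and Cd74 are lowest in Foxn11089/1089, whereas Foxn1 and Il7 are highest there and Dll4 lies within its counting interval of the control.

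Cytokine genes of the epithelium did not follow the chemokine. Il7, the survival factor of early thymocytes, was at 264 CPM in control members, 393 in those labelled Tbx1neo2/neo2 and 516 in Foxn11089/1089 members, a log2 ratio of 0.97 (0.91 to 1.02) for the last. Kitl, the ligand of the KIT receptor on progenitors, was at 121, 94 and 163 CPM. Over the gated epithelium Il7 was at 219, 267 and 269 CPM. Of 14 chemokine, cytokine and related genes compared, 2 were at least 2-fold higher and 3 lower in Foxn11089/1089 members, with a median of 0.30. In those labelled Tbx1neo2/neo2, 1 was higher and none lower, with a median of 0.07. Ccl21a, a medullary-type chemokine gene whose reads can be shared with near-identical copies, was at 76.1, 45.1 and 15.4 CPM. Cxcl14, another chemokine gene, was at 11.95, 14.7 and 37.7 CPM.

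Several class II genes were lower in the Foxn11089/1089 members. Of 6 class II genes compared, 4 were at least 2-fold lower and none higher, with a median log2 ratio of -1.60. In members labelled Tbx1neo2/neo2, 1 was lower and the median was -0.39. Cd74, the invariant chain that escorts class II molecules, was at 490 CPM in control members, 215 in those labelled Tbx1neo2/neo2 and 58.4 in Foxn11089/1089 members. Its log2 ratios over control were -3.07 (-3.20 to -2.94) for Foxn11089/1089 and -1.19 (-1.23 to -1.14) for the library labelled Tbx1neo2/neo2. H2-Aa, a class II chain, was at 115, 74 and 31.8 CPM, and H2-Ab1, its partner chain, at 325, 286 and 114 CPM. H2-DMa, which helps load class II peptides, was at 19.1, 15.5 and 19.2 CPM. Class II genes are also expressed by myeloid cells, whose marker list stood at 25.3, 26.6 and 5.18 CPM in the members. Without the 7, 3 and 0 members at 10 or more of these UMIs, the list stood at 6.78, 2.97 and 5.18 CPM. Of its genes, 3 of 3 compared were at least 2-fold lower in Foxn11089/1089 members, and 3 of 4 in those labelled Tbx1neo2/neo2. Without members holding 10 or more UMIs of another cell type's markers, the Cd74 log2 ratios were -2.97 and -1.21. Members with fewer such UMIs remained, and the part of myeloid RNA in the remaining difference was not tested.

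Among 16 class I and proteasome genes compared, 6 were at least 2-fold lower and 1 higher in Foxn11089/1089 members, with a median of -0.66. In members labelled Tbx1neo2/neo2, 1 of 17 was lower and 3 were higher, with a median of -0.10. Calr, an endoplasmic reticulum chaperone, was at 208, 786 and 495 CPM. The immunoproteasome subunit genes, whose products replace the constitutive catalytic subunits, were among the lower ones. Psmb9 was at 46.1, 43.0 and 4.96 CPM, a log2 ratio of -3.22 for Foxn11089/1089. Psmb10 was at 407, 256 and 85.3 CPM, a log2 ratio of -2.25. Psmb8 had 111, 26 and 1 UMIs, and the ratio for the single UMI was -5.57 with a wide counting interval (-10.88 to -3.06). With 0.5 UMI added to both sums it was -4.99, and -3.41 without members holding another cell type's markers. Of the constitutive subunit genes, Psmb5 was at 722, 467 and 438 CPM and Psmb7 at 94.2, 180 and 165 CPM, so Psmb5 was lower and Psmb7 higher in both libraries than in the control.

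Several transcription factor genes of the pharyngeal pouch and early thymus were higher in Foxn11089/1089 members. In Foxn11089/1089 members, 8 of the 14 compared were at least 2-fold higher, and none was lower, with a median of 1.25. The highest ratio of the list, 1.646, was that of Foxn1 itself, described above. In the library labelled Tbx1neo2/neo2, 4 were higher, 9 lay above the median of all genes and the list median was 0.61. After centring on the median gene these medians were 1.03 and 0.20. In the direct comparison of those libraries, 3 were higher in Foxn11089/1089 and the median was 0.42. Trp63, which maintains epithelial progenitors, was at 40.2 CPM in control members, 107 in those labelled Tbx1neo2/neo2 and 116 in Foxn11089/1089 members. Eya1, a transcriptional cofactor of the pouch, was at 26.3, 49.7 and 64.3 CPM. Pax1, a pouch gene needed for thymus growth, was at 754, 1043 and 906 CPM, with log2 ratios of 0.26 for Foxn11089/1089 and 0.47 for the library labelled Tbx1neo2/neo2. For Pax1 both ratios were close to the median of all genes.

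**Figure D3:**
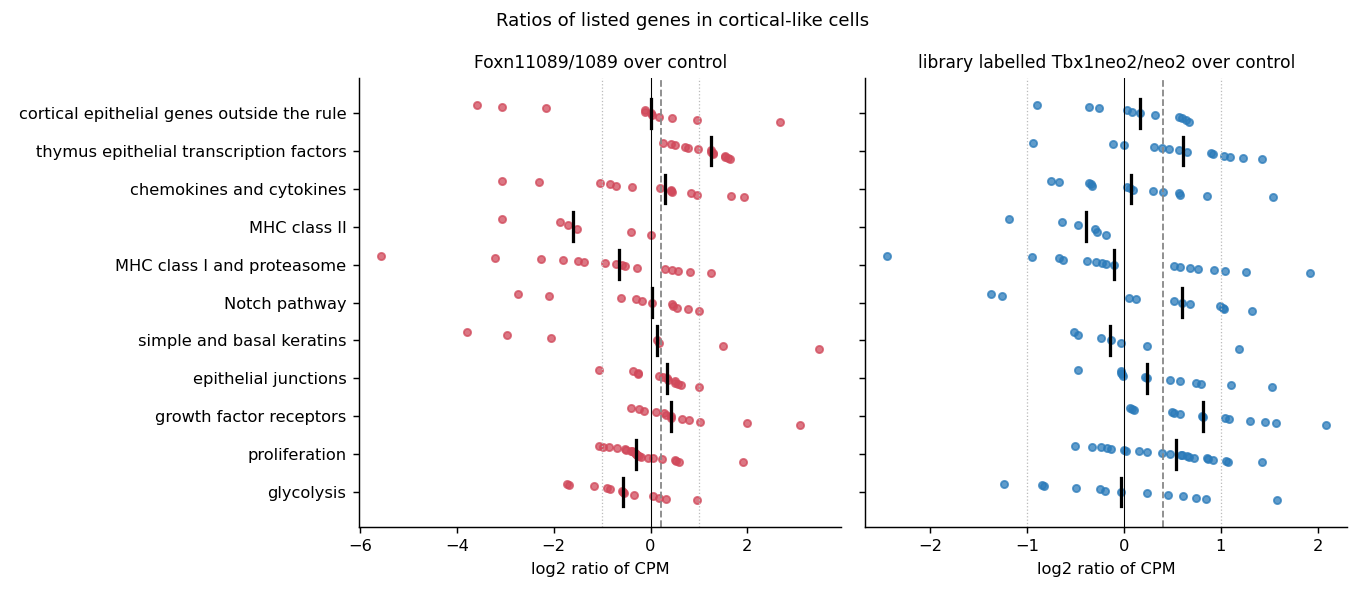
Log2 ratio over control (x axis) for the compared genes of each list (y axis), with 1 point per gene, for Foxn11089/1089 and for the library labelled Tbx1neo2/neo2. Thick bars are list medians, the dashed line is the median of all genes and dotted lines mark 2-fold. Class II genes have a median of -1.60 in Foxn11089/1089 and the transcription factors 1.25.

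Notch genes other than Dll4 showed a lower Jag1 level. Jag1, a Notch ligand gene, was at 93.8, 39.3 and 14.1 CPM, a log2 ratio of -2.73 for Foxn11089/1089 and -1.26 for the library labelled Tbx1neo2/neo2. Notch2 was at 79.5, 30.6 and 18.6 CPM, and these were the 2 genes of 11 at least 2-fold lower in Foxn11089/1089, where none was higher. In the library labelled Tbx1neo2/neo2 3 were higher and 2 lower. The list medians were 0.03 and 0.60. Hes1, a Notch target, was at 83.7, 172 and 142 CPM and so was higher in both libraries while Jag1 and Notch2 were lower.

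Keratin genes of the simple epithelium differed from each other. Krt8 was at 790, 1804 and 896 CPM and its pairing partner Krt18 at 2650, 1901 and 634 CPM. Krt18 was thus lower in Foxn11089/1089 members with a log2 ratio of -2.06, whereas Krt8 was at 0.18. Krt15, a keratin of basal epithelia, was at 2.35, 2.14 and 26.4 CPM, a log2 ratio of 3.49. Over the 7 keratins compared, 2 were higher and 3 lower, with a median of 0.14. The rule holds Krt5 and Krt17 below the cortical sum, so any call for them in members is partly set by the selection. Members labelled Tbx1neo2/neo2 had 1 higher and none lower, with a median of -0.14.

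Few proliferation genes were 2-fold apart from the control. Of 22 compared in Foxn11089/1089 members, 1 was at least 2-fold higher and 1 lower, 16 were below 0 and the median was -0.29. In members labelled Tbx1neo2/neo2, 3 were higher and none lower, 16 were above 0 and the median was 0.53. In the direct comparison 7 were at least 2-fold lower in Foxn11089/1089, none was higher and 19 were below 0. With members thinned to 2000 UMIs, at least 3 summed UMIs of the list were found in 69.8% of control members. The share was 82.3% in those labelled Tbx1neo2/neo2 and 48.3% in Foxn11089/1089. At 8000 UMIs these shares were 93.5%, 95.9% and 86.4%. Mki67, a marker of cycling cells, was at 112, 232 and 167 CPM, and Pcna, the DNA polymerase clamp, at 89.3, 99.1 and 42.7 CPM. Ccnd1, a G1 cyclin, was at 10.1, 27.0 and 37.95 CPM. Without members holding 10 or more UMIs of another cell type's markers, the Ccnd1 log2 ratio for Foxn11089/1089 was 0.66 in place of 1.91. These 3 genes thus differed in their order across libraries. Of 6 cell cycle inhibitor genes 3 were higher and 1 lower, with Btg2 at 76.3, 145 and 365 CPM and Cdkn1c at 199, 242 and 401 CPM. Cdkn1c was just past 2-fold, at a log2 ratio of 1.01. It was at 0.84 without members holding 10 or more UMIs of another cell type's markers. Its ratio in the library labelled Tbx1neo2/neo2 then went from 0.28 to -0.30. Of the 6 inhibitor genes 1 was higher and 1 lower in that library, with a median of 0.45. Of 13 glycolysis genes 3 were lower and none higher, with a median of -0.57. Those labelled Tbx1neo2/neo2 had 1 higher and 1 lower, with a median of -0.04. Gapdh was at 7564, 3209 and 2343 CPM, and so was lower in both libraries than in the control.

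The remaining lists gave these counts for Foxn11089/1089 over control, with the list median of the library labelled Tbx1neo2/neo2 after it. Of 8 medullary genes compared 3 were higher and 3 lower (medians -0.04 and 0.15). Any call for Krt5 or Krt17 in these lists is partly set by the rule, which limits them. Of 9 lysosomal genes 2 were higher (0.56 and 0.54), among them Cst3, a cysteine protease inhibitor, at 307, 202 and 669 CPM. Of 13 junction genes 1 was lower (0.34 and 0.24), and of 13 growth factor receptor genes 3 were higher (0.41 and 0.81). Of 10 immediate early and heat shock genes 2 were higher and 1 lower (0.33 and 0.02). A list that the study itself chose on these samples, and that is therefore no independent evidence of direction, had 1 gene higher and 5 lower of 16 (0.07 and -0.14).

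By size alone, the lowest genes in Foxn11089/1089 members over control were Prss16, Lars2, Hist1h3e, Hist1h1b and Syngr1. Lars2 and the histone genes were lower to a like degree in the library labelled Tbx1neo2/neo2, whose lowest 5 genes were Hist1h3e, Hist1h1a, Lars2, Hist1h2bm and Hist1h1b (log2 ratios from -4.76 to -3.34). Syngr1, which encodes a synaptic-vesicle protein, was at 90.5, 54.5 and 6.73 CPM. Prss16 was at 418.8, 543.2 and 12.8 CPM, which gave a log2 ratio of -5.03 (-5.31 to -4.77), but it belongs to the rule. The highest genes in Foxn11089/1089 were Spink8, Map1b, Pth, Hs3st6 and Col9a1. Spink8, a serine protease inhibitor of the Kazal type, was at 2.17, 1.29 and 50.6 CPM. Map1b, a microtubule-associated protein gene of neurons, was at 6.45, 24.0 and 92.1 CPM. Pth, limited by the rule to under 20 UMIs a cell, had at least 1 UMI in 68, 1 and 248 members and at least 5 in 7 Foxn11089/1089 members only, so low counts were spread over many cells of a library in which 310 other cells had 20 or more.

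The highest genes in the library labelled Tbx1neo2/neo2 over control were Acta2, Igfbp5, Sfrp2, Meg3 and Phxr4. Acta2, smooth muscle actin, was at 2.68, 45.4 and 2.98 CPM, and Igfbp5, an IGF-binding protein gene of mesenchyme, at 18.0, 147.6 and 187.1 CPM. Mesenchymal markers stood at 99.4 CPM in control members, 266 CPM in those labelled Tbx1neo2/neo2 and 294 CPM in those of Foxn11089/1089, with 25, 70 and 27 members at 10 UMIs or more. Without those members the levels were 25.6, 59.2 and 46.8 CPM. Without all members that held 10 or more UMIs of any other cell type, the log2 ratio of Acta2 for the library labelled Tbx1neo2/neo2 was 2.12 in place of 4.07, and that of Igfbp5 1.57 in place of 3.04. In the direct comparison of Foxn11089/1089 with the library labelled Tbx1neo2/neo2, the lowest genes were Prss16, Tnc, Tbata, Psmb9 and Cxcl12, and the highest were Igfbp6, Spink8, Rprm, Hs3st6 and Prune2. Tnc, an extracellular matrix glycoprotein, was at 26.0, 50.8 and 4.19 CPM.

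The genes that most set the control members apart from all other kept control cells offer another view of the Foxn11089/1089 members. The 10 with the highest ratio were Umodl1, Fgf14, Slc22a7, Psmb11, Ppp1r27, A330008L17Rik, Snap91, Ccl25, Riiad1 and Acaa1b, from 23.2-fold to 13.5-fold higher in members. They were ranked on the control counts, so a lower level elsewhere is favoured by the choice and is given as a description. Fgf14, an intracellular fibroblast growth factor homologue, had 1171 UMIs in control members, 2178 in those labelled Tbx1neo2/neo2 and 1 in Foxn11089/1089 members. The ratio for that single UMI was -8.96 (-14.27 to -6.48). A330008L17Rik, a gene without an assigned function, had 702, 972 and 3 UMIs. Slc22a7, an organic anion transporter, was at 58.9, 25.6 and 1.21 CPM, and Ppp1r27, a phosphatase 1 regulatory subunit, at 137.8, 74.1 and 16.8 CPM. Acaa1b, a peroxisomal thiolase, was at 48.9, 32.1 and 5.96 CPM. Of the 8 genes outside the rule, 7 were at least 2-fold lower in Foxn11089/1089 members and 2 in those labelled Tbx1neo2/neo2. Riiad1 was the exception in Foxn11089/1089, at 59.2, 28.2 and 61.0 CPM. Within the Foxn11089/1089 library, members were set apart most by Ccl25 and Psmb11 of the rule, and then by Ctnna3, an alpha-catenin gene, at 10.7, 22.2 and 51.1 CPM.

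Members were next set beside gated epithelial cells of their own library. One comparator held cells led by Krt5 and Krt17, with at least 5 of their UMIs and no fewer than the cortical sum (323, 99 and 560 cells), and the other held cells with fewer than 5 UMIs of both sums (485, 378 and 3008 cells). Both were formed with the rule's genes, so the values are descriptions. Over control Krt5/Krt17-led cells, 5.96% of 9992 genes were at least 2-fold higher in members and 6.73% lower. Over control cells low in both sums, 3.34% of 10154 genes were higher and 3.34% lower. Of 10 cortical genes outside the rule, 7 were higher than in the Krt5/Krt17-led cells and 8 higher than in the low cells, with medians of 1.30 and 1.51. The low cells carried more markers of other cell types, of which 7 of 8 mesenchymal (median -2.53), all 5 thymocyte (-3.34) and 4 of 5 myeloid genes (-3.23) were at least 2-fold lower in members. Their part in the comparison was not tested. Thyroid and mesenchymal genes also differed between libraries over the gated epithelium, of which low cells are a part. There Nkx2-1 was at 0.766 CPM in the control, 77.5 in the library labelled Tbx1neo2/neo2 and 0.788 in Foxn11089/1089. Col1a2 was at 31.0, 217.5 and 109.5 CPM. In members labelled Tbx1neo2/neo2 the whole thyroid list stood at 23.5 CPM. The part of such cells in the low cells of each library was not tested. Of 11 medullary genes, 10 were lower than in the Krt5/Krt17-led cells. Any call for Krt5 or Krt17 among them is set in part by how the cells were chosen.

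Ly75 and Dll4 stood higher in members in each library. Ly75 was at 50.1 CPM in control members, 6.74 in Krt5/Krt17-led cells and 11.1 in low cells. In the library labelled Tbx1neo2/neo2 it was at 56.1, 11.3 and 4.71 CPM, and in Foxn11089/1089 at 11.1, 1.12 and 3.04 CPM. Dll4 was at 22.9, 3.73 and 8.62 CPM in the control, at 34.7, 10.3 and 2.70 CPM in the library labelled Tbx1neo2/neo2 and at 23.4, 2.97 and 6.13 CPM in Foxn11089/1089. Cd83 was at 43.0, 8.34 and 15.2 CPM in the control, at 53.6, 12.5 and 11.3 CPM in the library labelled Tbx1neo2/neo2 and at 39.8, 4.82 and 11.2 CPM in Foxn11089/1089. In each library the members thus stood above both comparators for these genes, and the difference of these ratios between libraries was not tested.

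Class II genes and Tbata took a different position. Cd74 was at 490 CPM in control members, 1329 in Krt5/Krt17-led cells and 44.5 in low cells. In the library labelled Tbx1neo2/neo2 it was at 215, 489 and 1.66 CPM, and in Foxn11089/1089 at 58.4, 5.55 and 5.96 CPM. Cd74 was therefore highest in the Krt5/Krt17-led cells of the first 2 libraries, and highest in the members of the third. Tbata was at 77.9, 134.8 and 0.359 CPM in the control, at 65.1, 95.6 and 0.554 CPM in the library labelled Tbx1neo2/neo2 and at 6.51, 0.793 and 0.217 CPM in Foxn11089/1089. Cxcl12 was at 195.5, 72.9 and 67.6 CPM in the control. In the other libraries the low cells were highest for Cxcl12, at 199.6, 89.7 and 227.8 CPM in that labelled Tbx1neo2/neo2 and 23.4, 12.95 and 38.7 CPM in Foxn11089/1089. The part of mesenchymal cells in these Cxcl12 levels was not tested. Jag1 was lowest in the members of each library, at 93.8, 437 and 190 CPM in the control, 39.3, 103.6 and 42.3 CPM in the library labelled Tbx1neo2/neo2 and 14.1, 79.2 and 32.8 CPM in Foxn11089/1089.

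Foxn1 itself differed between the low cells of the libraries. Those of the control had 38.3 CPM, those labelled Tbx1neo2/neo2 3.60 CPM and those of Foxn11089/1089 130 CPM, against 102, 134 and 320 CPM in members. The limit of 5 UMIs is an absolute count, and the low cells differed in depth. Their median was 18153 UMIs in the control, 29165 in the library labelled Tbx1neo2/neo2 and 19493 in Foxn11089/1089. The same limit therefore allowed more cortical RNA per UMI in shallower low cells. The part of depth, and that of thyroid and mesenchymal cells, in the levels of the low cells was not tested. In Foxn11089/1089 the cells below the cortical threshold thus had more Foxn1 than control members did.

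**Figure D4:**
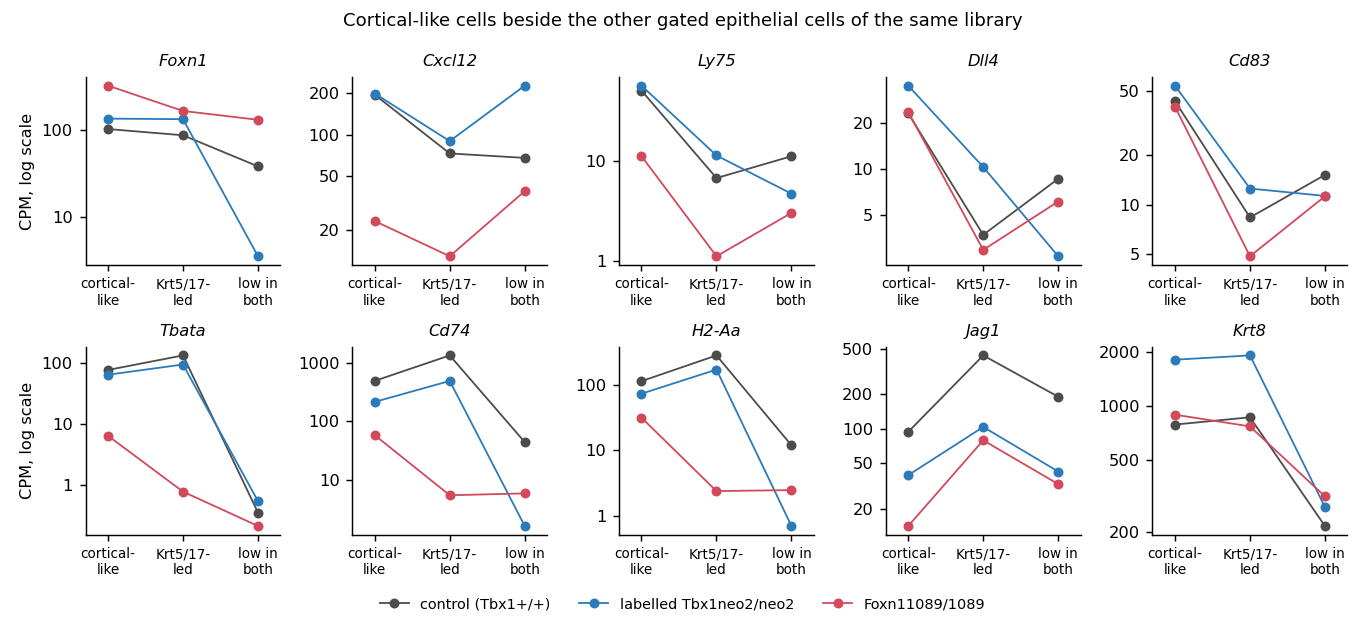
Level in CPM (log axis) of named genes in members, Krt5/Krt17-led cells and cells low in both sums, for each library, drawn without intervals. Cd74 is highest in the Krt5/Krt17-led control cells, at 1329 CPM, and highest in the members of Foxn11089/1089, at 58.4 CPM.

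Members varied among themselves along the cortical sum. Within each library they were ranked by the cortical sum per UMI and divided into terciles of 428 or 429 cells in the control, 173 or 174 in the library labelled Tbx1neo2/neo2 and 127 or 128 in Foxn11089/1089. The upper tercile was shallower than the lower in each library, with median depths in the control of 12684.5 and 19606 UMIs. Over 8332 genes in the control, 3.65% were at least 2-fold higher in the upper tercile and 2.2% lower. Of 10 cortical genes outside the rule 6 were higher and 1 lower, with a median of 1.18, all 5 class II genes compared were higher (median 3.03), and 7 of 14 class I and proteasome genes were higher (median 1.002). Of the proliferation genes 3 were lower, with a median of -0.71. Mesenchymal markers moved with the terciles, as 4 of 6 compared were lower in the upper one (median -2.24), and their part was not tested.

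Tbata had a steep course. It was at 3.70, 27.3 and 253 CPM in the lower, middle and upper tercile of control members, at 1.60, 31.2 and 201 CPM in those labelled Tbx1neo2/neo2, and at 0.525, 2.89 and 19.7 CPM in Foxn11089/1089. Cd74 was at 125, 395 and 1164 CPM in the control and at 23.1, 63.2 and 107 CPM in Foxn11089/1089. The log2 ratio of the upper to the lower tercile for Cd74 was 3.22 in the control, 3.85 in the library labelled Tbx1neo2/neo2 and 2.21 in Foxn11089/1089. Krt18 was at 857, 2132 and 6020 CPM in the control, 408, 1619 and 4505 CPM in the library labelled Tbx1neo2/neo2 and 340, 534 and 1196 CPM in Foxn11089/1089. These genes ran with the cortical sum in every library, at lower levels in the like-named tercile of Foxn11089/1089. The terciles were cut within each library and so are not matched on the cortical sum. Its median over the terciles was 494, 1527 and 3568 CPM in the control. It was 337, 1281 and 3242 CPM in the library labelled Tbx1neo2/neo2 and 280, 631 and 1385 CPM in Foxn11089/1089. The part of this difference in the gene levels was not tested.

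Foxn1 had a shallower course over the terciles, at 77.4, 104 and 138 CPM in the control, 82.7, 143 and 203 CPM in the library labelled Tbx1neo2/neo2 and 265, 339 and 383 CPM in Foxn11089/1089. The lowest Foxn11089/1089 tercile was therefore above the highest control tercile for Foxn1. Mki67 went the other way, at 139, 106 and 75.3 CPM in the control, 294, 237 and 132 CPM in the library labelled Tbx1neo2/neo2 and 221, 155 and 99.1 CPM in Foxn11089/1089. Cxcl12 had no common course, since its upper-to-lower log2 ratio was 1.53 in the control, 1.69 in the library labelled Tbx1neo2/neo2 and -0.83 in Foxn11089/1089. Mesenchymal-marker cells among the Foxn11089/1089 members also express Cxcl12, and their part in its course was not tested.

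**Figure D5:**
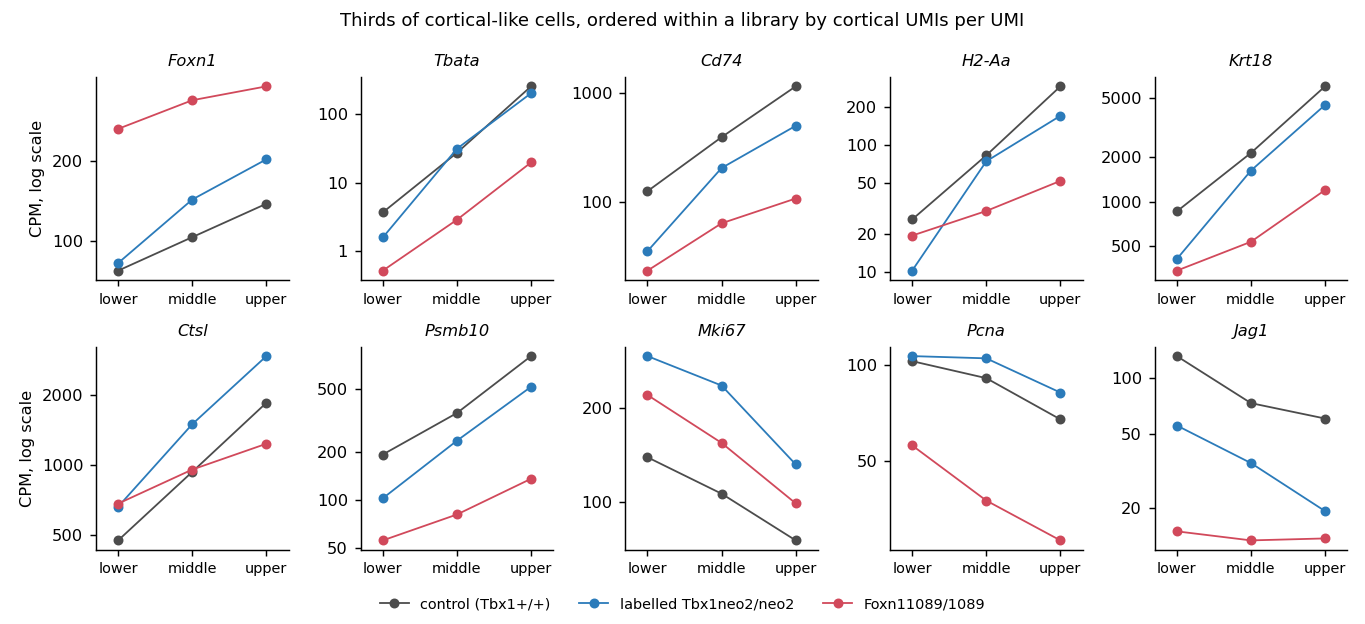
Level in CPM (log axis) of named genes in the lower, middle and upper tercile of members ranked by the cortical sum per UMI, for each library. Tbata, Cd74 and Krt18 are higher in the upper tercile of each library and Mki67 is lower, while Foxn1 in the lower Foxn11089/1089 tercile (265 CPM) lies above the upper control tercile (138 CPM).

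Markers of other cell types were found in some members. Members with 10 or more UMIs of any such list numbered 36 of 1286 in the control, 79 of 521 in the library labelled Tbx1neo2/neo2 and 30 of 383 in Foxn11089/1089. At least 3 mesenchymal UMIs were found in 61, 300 and 64 members. Both limits are absolute counts and are easier to reach in a deeper cell. The members' median depth was 15782.5, 47573 and 20864 UMIs, and per UMI the mesenchymal list stood at 99.4, 266 and 294 CPM. Leaving out members at 10 UMIs is therefore not an equal cut across the libraries. The endothelial list stood at 34.6, 20.5 and 99.0 CPM, and at 33.1, 20.5 and 20.8 CPM without the 1, 0 and 3 members that held 10 or more of its UMIs. The thymocyte list stood at 21.8, 15.6 and 8.38 CPM. The parathyroid list stood at 21.3, 19.3 and 57.0 CPM. The thyroid list stood at 0.424, 23.5 and 2.54 CPM, with 7 members labelled Tbx1neo2/neo2 at 10 UMIs or more, and its defining genes Nkx2-1, Foxe1 and Pax8 were at 0 in control and Foxn11089/1089 members. All 6 red blood cell genes compared were at least 2-fold higher in Foxn11089/1089 members, with a median log2 ratio of 2.32. For members labelled Tbx1neo2/neo2, 1 was lower and none higher, with a median of -0.06. The part of free RNA from these cells in the gene differences was not tested. Values without the members concerned are given above for Cxcl12, Cd74, Psmb8, Ccnd1, Cdkn1c, Acta2 and Igfbp5.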

How the data were processed

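The data were 3' single-cell RNA counts of thymic lobes, with 1 library for each of 3 genotypes. The authors deposited, for each library, a matrix of raw UMI counts per gene and barcode. The submitters' processing notes name Cell Ranger (3.0.0), Seurat and the build mm10. The deposited counts carry no cell annotation.

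Barcodes with at least 200 genes, at least 2000 UMIs, under 20% mitochondrial and under 5% hemoglobin UMIs were kept, and the member rule was applied to them. Likely doublets were left in, and an alternative left out the highest Scrublet scores at 0.8% per 1000 barcodes. Counts were summed over members. For calls and list medians, 0.5 UMI was added to each sum. Shares have exact Clopper-Pearson intervals, levels exact Poisson intervals and ratios exact conditional binomial intervals. With 1 library per genotype no test was run. The ratio script was tested on simulated counts.

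Named genes were the rule's genes, the fixed lists, the 5 highest and 5 lowest ratios per comparison (at least 300 UMIs, at least 30 in each library, without mitochondrial, ribosomal, hemoglobin, sex-linked and unnamed genes) and the 10 highest genes of control members over other kept cells, and Ctnna3 was named after its values were seen. The members and lists were chosen with earlier results of these data known. Promoters came from RefSeq (GRCm38.p6) and positions from GENCODE M21. Python 3.11.15 was used with numpy 2.4.6, scipy 1.17.1, pandas 2.3.3, matplotlib 3.10.9 and scanpy 1.11.5.

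Alternatives changed the thinning, the threshold, the Ptprc and mitochondrial limits, the doublets, the scaling, the weighting of cells, the minimum UMIs and the fold. Those chosen after seeing the data left out members with 10 UMIs of another cell type, required Psmb11 or Prss16, or required 500 CPM of the cortical sum, and the direct comparison of Foxn11089/1089 with the library labelled Tbx1neo2/neo2 was likewise added. Values of 1 listed gene are not reported here.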

Additional observations from a re-analysis of the deposited data

How the results depend on the processing

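No paired analysis was possible because each genotype has 1 library, and for the same reason no library could be left out. The causes of the movements below were not tested. The share of kept cells that were members was 25.92% in the control, 14.56% in the library labelled Tbx1neo2/neo2 and 4.895% in Foxn11089/1089. With cells thinned to 2000 UMIs it was 5.079%, 2.626% and 0.3579%, and at 8000 UMIs 21.58%, 10.96% and 2.966%. With a cortical sum of at least 10 UMIs it was 21.36%, 13.38% and 3.08%, and with at least 500 CPM 21.52%, 11.01% and 2.825%. With at least 3 UMIs it was 28.05% in the control and 7.503% in Foxn11089/1089. Without members holding 10 UMIs of another cell type it was 12.35% in the library labelled Tbx1neo2/neo2, and with Psmb11 or Prss16 required it was 3.592% in Foxn11089/1089.

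Counts of genes at least 2-fold apart moved more. For Foxn11089/1089 over control, 1151 higher and 566 lower became 362 and 304 with the rule applied at 2000 UMIs, 647 and 959 with median-of-ratios scaling, 712 and 852 after centring, 291 and 276 with members thinned, 660 and 374 at a minimum of 300 UMIs, and 371 and 224 at 3-fold. For the library labelled Tbx1neo2/neo2 over control, 1555 and 268 became 917 and 156, 402 and 843, 375 and 900, and 355 and 137 under the first 4 of these, and 211 and 68 at 3-fold, with 406 lower at a minimum of 30 UMIs and 172 lower at 300. For Foxn11089/1089 over the library labelled Tbx1neo2/neo2, 356 and 685 became 129 and 432 with the rule at 2000 UMIs, 57 and 122 with members thinned, 178 and 424 at 300 UMIs and 151 and 239 at 3-fold, with 650 higher at 30 UMIs.

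Across the alternatives, 3493 values of single genes and lists lay inside the interval of the main setting and 1712 lay outside it. Another 7 reversed the sign of a ratio at least 2-fold apart. Of 174 ratios of named genes at least 2-fold apart, 167 kept their sign, though not always their size, under every alternative run. The others changed sign with the rule applied at 2000 UMIs, which left 28 Foxn11089/1089 members. Over control, the log2 ratio in Foxn11089/1089 became 0.048 for Krt5, 0.13 for Ccl21a and -0.22 for Ccnd1, and in the library labelled Tbx1neo2/neo2 0.99 for Prune2. Over the library labelled Tbx1neo2/neo2 it became 0.069 for H2-Aa, 0.61 for Ccl21a and 0.037 for Acta2. The median of the cortical genes outside the rule lay between -0.26 and 0.23 for Foxn11089/1089 over control, between -0.24 and 0.45 for the library labelled Tbx1neo2/neo2 over control and between -0.62 and 0.06 for the direct comparison, so its sign was not settled.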
